A study of Mus musculus with 9 samples.

Results

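The regulators of the sarcoplasmic reticulum calcium store described here are 10 mouse genes, taken by symbol from the gene count tables: Pln, Sln, Atp2a2, Casq1, Casq2, Jph1, Jph2, Sypl2, Stac3 and Cacng1. All 10 were found among the 55401 genes counted, and all 10 were among the 18514 genes with enough counts to be tested. The libraries were made from calf muscle (gastrocnemius) RNA of FVB wild-type mice, 2 to 3 months of age, in 3 groups of 3, with tissue collected 7 weeks after an injection into the muscle. The first group received AAV-GFP-MBNL1∆, an adeno-associated virus vector for green fluorescent protein and a shortened form of the RNA-binding protein MBNL1. The second received AAV-GFP, the vector with green fluorescent protein alone, and the third received saline. All mice were wild type, so no library carried the expanded CUG repeats of myotonic dystrophy, to which MBNL1 binds and for which the series title names a decoy protein. The promoter that drives either vector and the number of mice behind each group are not given in the labels, which also do not say that libraries are separate animals.

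In a skeletal muscle fibre, an action potential runs down the T-tubules to the triads, where the voltage sensor (the L-type calcium channel) sits opposite the ryanodine receptor RYR1 of the sarcoplasmic reticulum. Junctophilins tie both membranes together, calsequestrins buffer calcium inside the store, and SERCA pumps return calcium to it so that the fibre relaxes. Fast fibres use mainly the pump encoded by Atp2a1, slow fibres and heart that encoded by Atp2a2, and small membrane peptides such as phospholamban and sarcolipin slow the pumps.

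The 9 libraries held 44603618 to 76970849 counts in genes. The AAV-GFP-MBNL1∆ libraries had the sex-linked pattern of males, with Xist, the RNA that silences an X chromosome in females, at 0.0182 to 0.0902 CPM, against 106 to 136 CPM in AAV-GFP and 105 to 130 CPM in saline libraries. CPM gives a gene's counts in every 1000000 counts of a library whose size was adjusted by TMM. Sex and AAV-GFP-MBNL1∆ thus cannot be told apart in any comparison with that group, while AAV-GFP and saline share the female pattern. Low counts of Y-linked genes were present in AAV-GFP. Ddx3y was at 82.7 to 84.6 CPM in AAV-GFP-MBNL1∆, 0.487 to 2.58 CPM in AAV-GFP and 0.409 to 0.693 CPM in saline. Eif2s3y was at 50.5 to 60.4 CPM, 0 to 1.11 CPM and 0 CPM in these groups. The source of these counts was not tested. AAV-GFP 2 also stood apart: its 10 macrophage markers summed to 2873 CPM, against 287 to 617 CPM in the other AAV-GFP libraries, 214 to 344 CPM in AAV-GFP-MBNL1∆ and 108 to 141 CPM in saline, and its 10 fast fibre markers had the lowest sum of the 9 libraries, 60685 CPM. The 10 slow fibre markers ranged from 3297 to 4525 CPM in AAV-GFP-MBNL1∆, 3300 to 7459 CPM in AAV-GFP and 4756 to 8239 CPM in saline. AAV-GFP 3 and saline 3 were highest of their groups in slow fibre markers. The 10 fast fibre markers summed to 99696 to 116220 CPM in AAV-GFP-MBNL1∆, 60685 to 99099 CPM in AAV-GFP and 94831 to 124990 CPM in saline. Against AAV-GFP, 2 of them rose in AAV-GFP-MBNL1∆ (Tnni2 and Myoz1), where 10.8% of all tested genes were called higher. The median log2 fold change of this list was 0.46, with 8 genes above 0 and 2 below. Whether fibre type plays a part in the triad genes below was not tested. The 8 adipocyte markers summed to 153 to 171 CPM in AAV-GFP-MBNL1∆, 241 to 298 CPM in AAV-GFP and 232 to 329 CPM in saline; 7 were tested, and 3 fell in AAV-GFP-MBNL1∆ against saline (Lep, Fabp4 and Retn; median log2 fold change of the list −2.50) and 4 against AAV-GFP (Adipoq, Plin1, Lep and Retn; median −2.25). Of 8 fibroblast markers, 1 fell against saline (Pi16) and 4 against AAV-GFP (Pdgfra, Dpt, Pi16 and Cd34). Over all tested genes, 4.6% were called lower against saline and 10.3% against AAV-GFP. The 10 T-cell markers summed to 6.98 to 17.1 CPM in AAV-GFP-MBNL1∆, 6.66 to 90.7 CPM in AAV-GFP and 0.863 to 1.31 CPM in saline. In AAV-GFP-MBNL1∆ 3 rose against saline (Cd3e, Cd8b1 and Lck, median 3.90), where 4.76% of all tested genes were called higher. The median was larger for AAV-GFP against saline, 5.66, a comparison in which no gene of the 18514 was called. For AAV-GFP-MBNL1∆ against AAV-GFP it was −1.79, and none of the 10 was called. The part of other cell types in the changes of Pln, Sln and the triad genes below was not tested. The 8 cardiac markers summed to 86.1 to 136 CPM in AAV-GFP-MBNL1∆, 125 to 228 CPM in AAV-GFP and 143 to 241 CPM in saline. Most of this was Myh6, which averaged 107, 152 and 169 CPM in these groups. Nppa and Myl7 of that list had 0 counts in all 9 libraries. In whole muscle, fewer cells of a type and less RNA per cell cannot be told apart.

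Promoter sequence is shown for Pln, Sypl2 and Jph2, whose levels passed a test below, and for Casq2, the one promoter with a match to the MEF2 consensus of muscle genes. RefSeq promoters (GRCm38.p6, 250 bases before the annotated start and 50 after it, 300 in all) were matched for 5 of the 10 genes, these and Casq1. The regions are chr10:53337436-53337735 (plus strand) for Pln, chr3:102086165-102086464 (plus strand) for Casq2, chr3:108226550-108226849 (minus strand) for Sypl2 and chr2:163397944-163398243 (minus strand) for the Jph2 start that is also the start in GENCODE. Capitals mark E-boxes (CANNTG, read on both strands) and, in Casq2, the one match to the MEF2 consensus.
Pln: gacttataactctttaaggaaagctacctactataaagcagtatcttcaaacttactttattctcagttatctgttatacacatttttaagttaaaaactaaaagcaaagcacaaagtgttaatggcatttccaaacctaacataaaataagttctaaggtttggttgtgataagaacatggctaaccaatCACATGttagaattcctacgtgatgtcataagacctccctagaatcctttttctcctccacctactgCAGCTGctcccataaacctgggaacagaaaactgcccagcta
Casq2: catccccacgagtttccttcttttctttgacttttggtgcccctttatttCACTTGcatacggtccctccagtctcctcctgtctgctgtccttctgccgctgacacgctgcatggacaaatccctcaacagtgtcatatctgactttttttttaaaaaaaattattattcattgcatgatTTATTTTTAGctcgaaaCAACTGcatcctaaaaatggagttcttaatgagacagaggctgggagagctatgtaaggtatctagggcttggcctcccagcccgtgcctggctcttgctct
Sypl2: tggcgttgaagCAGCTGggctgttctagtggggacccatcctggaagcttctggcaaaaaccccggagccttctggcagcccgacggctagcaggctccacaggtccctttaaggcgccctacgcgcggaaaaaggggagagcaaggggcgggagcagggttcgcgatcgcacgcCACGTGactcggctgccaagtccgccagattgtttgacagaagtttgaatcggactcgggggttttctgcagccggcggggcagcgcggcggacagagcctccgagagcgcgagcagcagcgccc
Jph2: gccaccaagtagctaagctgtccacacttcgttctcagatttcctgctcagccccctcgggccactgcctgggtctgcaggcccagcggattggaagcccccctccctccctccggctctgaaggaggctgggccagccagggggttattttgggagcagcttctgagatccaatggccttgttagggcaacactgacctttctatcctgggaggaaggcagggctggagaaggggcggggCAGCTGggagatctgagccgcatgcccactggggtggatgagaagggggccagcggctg
E-boxes, which MyoD-family factors bind, were present in all 4, as in 72.3% of the 32851 RefSeq mouse promoters of this length. Pln, Casq2 and Sypl2 held 2 each and Jph2 held 1. The MEF2 match of Casq2 lay 69 bases before the start and did not overlap an E-box. That motif was found in 3.19% of all promoters. Pln held one TATAAA, 219 bases before its start, a motif found in 13.6% of promoters. These matches describe letters in the window and show no binding.

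Pln, on chromosome 10 (53337667 to 53345987, plus strand, GRCm38), encodes phospholamban, the inhibitor of the slow and cardiac SERCA pump. It was at 4.05, 3.13 and 3.97 CPM in AAV-GFP-MBNL1∆ 1, 2 and 3, at 11.5, 10.2 and 22.8 CPM in AAV-GFP and at 12.1, 11.3 and 24.8 CPM in saline. All 3 AAV-GFP-MBNL1∆ libraries lay below all 6 others, and the AAV-GFP and saline libraries overlapped. Pln fell by 2.11 on the log2 scale in AAV-GFP-MBNL1∆ against saline (SE 0.40, adjusted p = 0.0175) and by 1.99 against AAV-GFP (SE 0.40, adjusted p = 0.0154), that is, it was 4.32-fold and 3.98-fold lower. AAV-GFP against saline gave a log2 fold change of −0.12 for Pln (SE 0.38, adjusted p = 0.866). The call against saline was lost without any 1 AAV-GFP-MBNL1∆ library (adjusted p from 0.0598 to 0.0714), and that against AAV-GFP without AAV-GFP-MBNL1∆ 2 or 3 (0.0564 and 0.065). Of its 2759 exonic bases, Pln shares 141 with Cep85l and 1644 with Gm47644, both on the opposite strand. The strand setting of the counting is not given in the sources used here. Whether reads in the shared bases were left unassigned, so that Pln counts rest on part of the gene, is not known. The TPM of Pln below divides by all 2759 bases. Cep85l was at 48.4 CPM in AAV-GFP-MBNL1∆, 39.1 CPM in AAV-GFP and 48.4 CPM in saline and passed no test (adjusted p from 0.185 to 0.997), and Gm47644, also opposite to Pln, had 0 counts in all 9 libraries.

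Sln, on chromosome 9 (53850164 to 53854560, plus strand), encodes sarcolipin, another small inhibitor that uncouples the pump's ATP use from calcium transport. It was at 2.18, 0.655 and 1.77 CPM in AAV-GFP-MBNL1∆ 1, 2 and 3, at 5.07, 6.79 and 10.2 CPM in AAV-GFP and at 2.24, 3.94 and 13.0 CPM in saline. The AAV-GFP-MBNL1∆ libraries were again the lowest 3 of the 9, but saline 1 lay only just above them and saline 3 far above the other saline libraries. In AAV-GFP-MBNL1∆ the log2 fold change of Sln came to −2.05 against saline (SE 0.69, adjusted p = 0.104) and −2.25 against AAV-GFP (SE 0.70, adjusted p = 0.0529). Neither passed the test. Without saline 3, the library highest in Sln, the value against saline was −1.002 (adjusted p = 0.329), and it lay between −2.46 and −1.70 without any other library. Against saline Sln passed with DESeq2 alone of the alternatives (adjusted p = 0.0075), and against AAV-GFP it passed in 6 of them: upper quartile scaling, the filter at 1 CPM, DESeq2, quality-weighted limma-voom, the fit that is not robust and the fit without saline 3 (adjusted p from 0.00193 to 0.0484). For AAV-GFP against saline the log2 fold change was 0.19 (SE 0.65, adjusted p = 0.873).

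Atp2a2, on chromosome 5 (122453513 to 122502225, minus strand), encodes the pump that both peptides act on in slow fibres. It was at 955, 601 and 1136.5 CPM in AAV-GFP-MBNL1∆, at 1164, 599.8 and 1338 CPM in AAV-GFP and at 924, 949.9 and 1593 CPM in saline. The groups overlapped, and no comparison passed (adjusted p from 0.568 to 0.8). Atp2a1, the fast fibre pump, was at 34681, 32494 and 37428 CPM in AAV-GFP-MBNL1∆, 23916, 14130 and 25587 CPM in AAV-GFP and 35222, 32779 and 27518 CPM in saline. It was lower in every AAV-GFP library than in the others, with a log2 fold change of −0.59 for AAV-GFP against saline (SE 0.25, adjusted p = 0.215) and 0.72 for AAV-GFP-MBNL1∆ against AAV-GFP (SE 0.25, adjusted p = 0.0662). The comparison of the vectors passed without AAV-GFP 2 or AAV-GFP 3 (adjusted p of 0.0406 and 0.043).

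**Figure D1:**
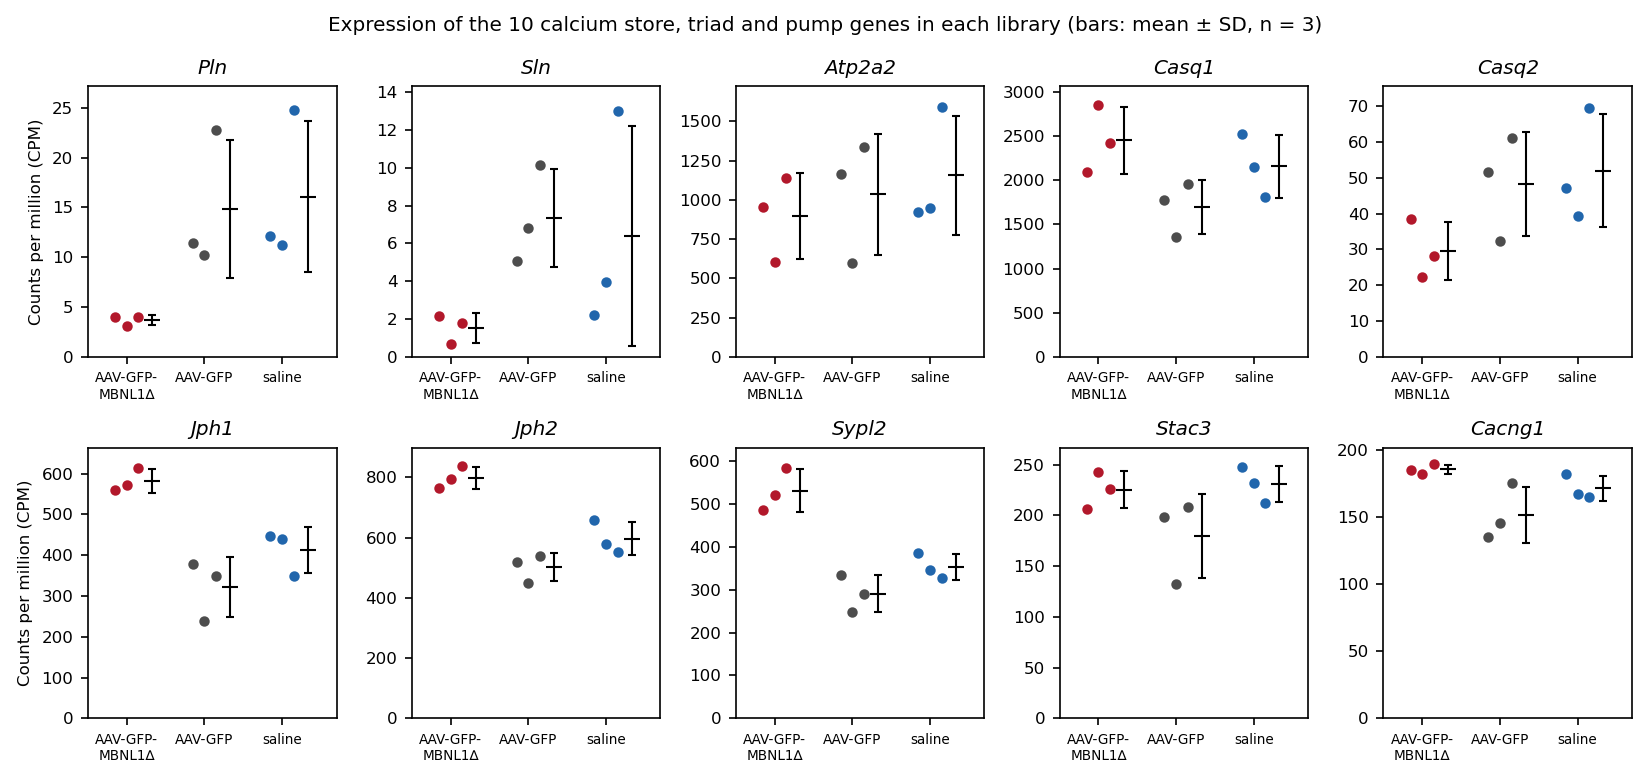
CPM (y axes, linear, from 0) of the 10 genes in each library, with AAV-GFP-MBNL1∆ in red, AAV-GFP in grey and saline in blue, and bars at mean ± SD of 3 libraries. Pln lies at 3.13 to 4.05 CPM in AAV-GFP-MBNL1∆ and at 10.2 CPM or more elsewhere, and Jph1, Jph2 and Sypl2 are above every other library in all 3 AAV-GFP-MBNL1∆ libraries.

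The inhibitors were set against their pump within each library, a ratio that scaling cannot move. Pln counts came to 0.424%, 0.52% and 0.349% of Atp2a2 counts in AAV-GFP-MBNL1∆ 1, 2 and 3, to 0.986%, 1.71% and 1.71% in AAV-GFP and to 1.31%, 1.18% and 1.56% in saline. The mean was 0.431% ± 0.0858 in AAV-GFP-MBNL1∆, 1.47% ± 0.416 in AAV-GFP and 1.35% ± 0.19 in saline (SD, n = 3 each), so the AAV-GFP-MBNL1∆ libraries lay apart from both. An exact two-sided permutation test of 3 against 3 gave 0.1 for each, the smallest p this design allows. Set against the sum of the slow fibre markers, Pln was 0.0877% to 0.0949% in AAV-GFP-MBNL1∆, 0.199% to 0.31% in AAV-GFP and 0.215% to 0.301% in saline, also without overlap, whereas Atp2a2 was 18.2% to 25.1%, 17.9% to 20.2% and 18.2% to 19.4% of that sum in AAV-GFP-MBNL1∆, AAV-GFP and saline. In both ratios, Pln was lower in AAV-GFP-MBNL1∆ than in the other groups. Whether fibre type plays a part in the Pln values was not tested. The slow fibre sum was chosen as denominator after the values were seen.

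Sln relative to Atp2a1 was 0.00434% ± 0.00216 in AAV-GFP-MBNL1∆, 0.0363% ± 0.0138 in AAV-GFP and 0.0219% ± 0.0222 in saline (SD, n = 3 each). The highest AAV-GFP-MBNL1∆ library (0.00629%) and the lowest saline library (0.00635%) almost touched. Relative to the slow fibre sum, the Sln values of AAV-GFP-MBNL1∆ (0.0199% to 0.0492%) overlapped those of saline (0.047% to 0.158%) and not those of AAV-GFP (0.088% to 0.206%). Atp2a2 was 2.55% ± 0.62 of Atp2a1 in AAV-GFP-MBNL1∆, 4.78% ± 0.497 in AAV-GFP and 3.77% ± 1.75 in saline, with no overlap between the vectors and overlap of each with saline.

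**Figure D2:**
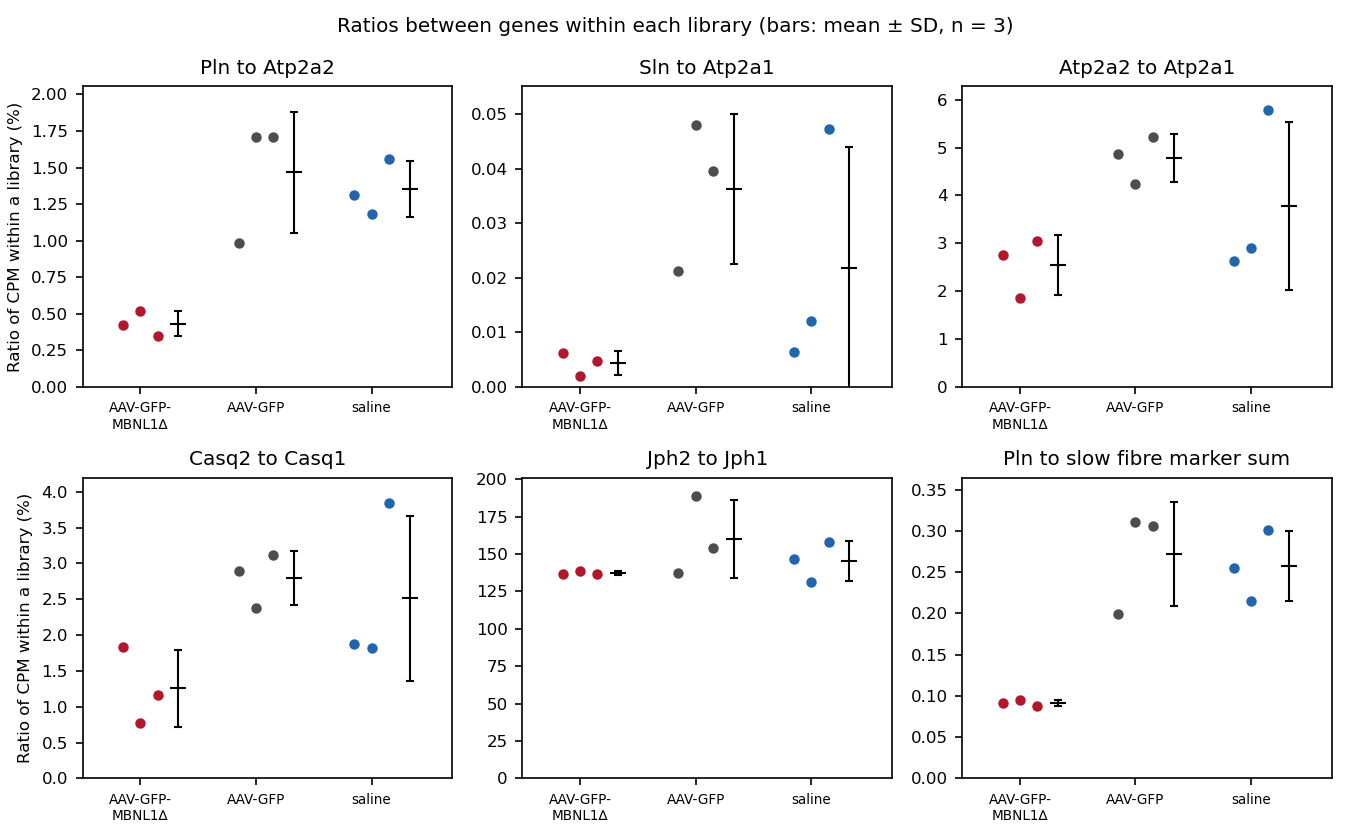
Ratio of CPM between gene pairs within each library, in percent (y axes from 0), for AAV-GFP-MBNL1∆, AAV-GFP and saline, with bars at mean ± SD of 3 libraries (the lower end of the saline bar for Sln to Atp2a1 falls below 0 and is not drawn). Pln to Atp2a2 is 0.349% to 0.52% in AAV-GFP-MBNL1∆ and 0.986% or more elsewhere, while Jph2 to Jph1 overlaps among the groups.

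Calsequestrins are the calcium buffers of the store, Casq1 the fast fibre form and Casq2 the slow fibre and cardiac form. Casq1 (chromosome 1, 172209894 to 172219868, minus strand) was at 2089, 2848 and 2427 CPM in AAV-GFP-MBNL1∆, 1779, 1359 and 1960.5 CPM in AAV-GFP and 2521, 2151 and 1810.4 CPM in saline. AAV-GFP-MBNL1∆ overlapped saline and lay above AAV-GFP, and no comparison passed (log2 fold change 0.53, SE 0.20, adjusted p = 0.0816 against AAV-GFP). Casq2 (chromosome 3, 102086415 to 102146514, plus strand) was at 38.4, 22.2 and 28.1 CPM in AAV-GFP-MBNL1∆, 51.5, 32.4 and 61.0 CPM in AAV-GFP and 47.2, 39.2 and 69.6 CPM in saline. The AAV-GFP-MBNL1∆ libraries lay just below the saline ones, and AAV-GFP 2 lay among them. Casq2 stood 0.81 below saline (log2 fold change −0.81, SE 0.30, adjusted p = 0.136) and 0.71 below AAV-GFP (log2 fold change −0.71, SE 0.30, adjusted p = 0.12), neither past the threshold. Casq2 passed against saline with DESeq2 (adjusted p = 0.0495) and, with quality-weighted limma-voom, in both comparisons (0.0432 and 0.00594). Relative to the slow fibre sum, Casq2 overlapped in all 3 groups: 0.621% to 0.866% in AAV-GFP-MBNL1∆, 0.818% to 0.981% in AAV-GFP and 0.751% to 0.992% in saline. None of the 10 slow fibre markers passed in any comparison, and their median log2 fold change for AAV-GFP-MBNL1∆ was −0.66 against saline and −0.65 against AAV-GFP, where the medians over all tested genes were 0.02 and −0.06. Whether fibre type plays a part in the Casq2 values was not tested.

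Jph1, Jph2 and Sypl2 build the triad. Jph1 (chromosome 1, 16964560 to 17097889, minus strand) and Jph2 (chromosome 2, 163336242 to 163397993, minus strand) encode the skeletal and the more widely used junctophilin, and Sypl2 (chromosome 3, 108211472 to 108226648, minus strand) encodes mitsugumin-29, a synaptophysin-like protein of the triad. Sypl2 was at 487, 522 and 585 CPM in AAV-GFP-MBNL1∆, 334, 248 and 291 CPM in AAV-GFP and 386, 346 and 327 CPM in saline. Jph1 was at 560, 573 and 614 CPM in AAV-GFP-MBNL1∆, 378, 238 and 349 CPM in AAV-GFP and 448, 441 and 348 CPM in saline. Jph2 was at 763, 794 and 837 CPM in AAV-GFP-MBNL1∆, 519, 449 and 537 CPM in AAV-GFP and 657, 579 and 551 CPM in saline. Jph1 shares 34 exonic bases with Gm28376 on the opposite strand, which averaged 1.53 CPM in AAV-GFP-MBNL1∆, 0.986 CPM in AAV-GFP and 1.09 CPM in saline. In each of the 3 triad genes, every AAV-GFP-MBNL1∆ library lay above all 6 others.

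Against AAV-GFP, all 3 rose in AAV-GFP-MBNL1∆. The log2 fold change was 0.87 for Sypl2 (SE 0.14, adjusted p = 0.00665), 0.86 for Jph1 (SE 0.18, adjusted p = 0.0169) and 0.67 for Jph2 (SE 0.12, adjusted p = 0.0102), which is 1.83-fold, 1.81-fold and 1.59-fold. The Sypl2 call was kept in each of the 9 fits that omit 1 library. Those of Jph1 and Jph2 were lost without AAV-GFP-MBNL1∆ 3 (adjusted p = 0.0734 and 0.0537), and that of Jph1 also with the 2 groups alone (0.055). Against saline, Sypl2 rose by 0.59 (SE 0.14, adjusted p = 0.0335), a call lost without any 1 saline or AAV-GFP-MBNL1∆ library (adjusted p from 0.0684 to 0.129) and with upper quartile scaling (0.0759). Jph1 and Jph2 did not pass against saline, with log2 fold changes of 0.50 (SE 0.18, adjusted p = 0.124) and 0.42 (SE 0.12, adjusted p = 0.0652). Both passed without AAV-GFP 2, a library of neither group compared (adjusted p = 0.0115 and 0.014), with the 2 groups alone (0.0123 and 0.0168), with DESeq2 (0.0496 and 0.0023) and with quality-weighted limma-voom (0.00931 and 0.00463). For AAV-GFP against saline, the log2 fold changes of Sypl2, Jph1 and Jph2 were −0.28, −0.36 and −0.25 (SE 0.14, 0.18 and 0.12), and none passed (adjusted p from 0.262 to 0.268).

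Ratios were also taken among the triad genes and to the release channel. Jph2 was 137% ± 1.36 of Jph1 in AAV-GFP-MBNL1∆, 160% ± 26.2 in AAV-GFP and 145% ± 13.4 in saline (SD, n = 3 each), with overlap among the groups. Ryr1, which encodes the channel itself, was at 4124, 3551.5 and 4608 CPM in AAV-GFP-MBNL1∆, 3515, 1913 and 3266 CPM in AAV-GFP and 4708, 4281 and 4034 CPM in saline, and passed no test (adjusted p from 0.14 to 0.86). Per Ryr1 count, Sypl2 was 11.8% to 14.7% in AAV-GFP-MBNL1∆, 8.92% to 13% in AAV-GFP and 8.07% to 8.2% in saline. Jph1 was 13.3% to 16.1% of Ryr1 in AAV-GFP-MBNL1∆, 10.7% to 12.4% in AAV-GFP and 8.63% to 10.3% in saline. Jph2 was 18.2% to 22.4% of Ryr1 in AAV-GFP-MBNL1∆, 14.8% to 23.4% in AAV-GFP and 13.5% to 14% in saline. Both vector groups thus lay above saline in all 3 of these ratios, and only Jph1 separated the vectors. For AAV-GFP the triad genes themselves were not higher than in saline. Their log2 fold changes were −0.28 (Sypl2), −0.36 (Jph1) and −0.25 (Jph2), and that of the denominator Ryr1 was −0.58 (SE 0.23, adjusted p = 0.199). Ryr1 was chosen as denominator after the values were seen.

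**Figure D3:**
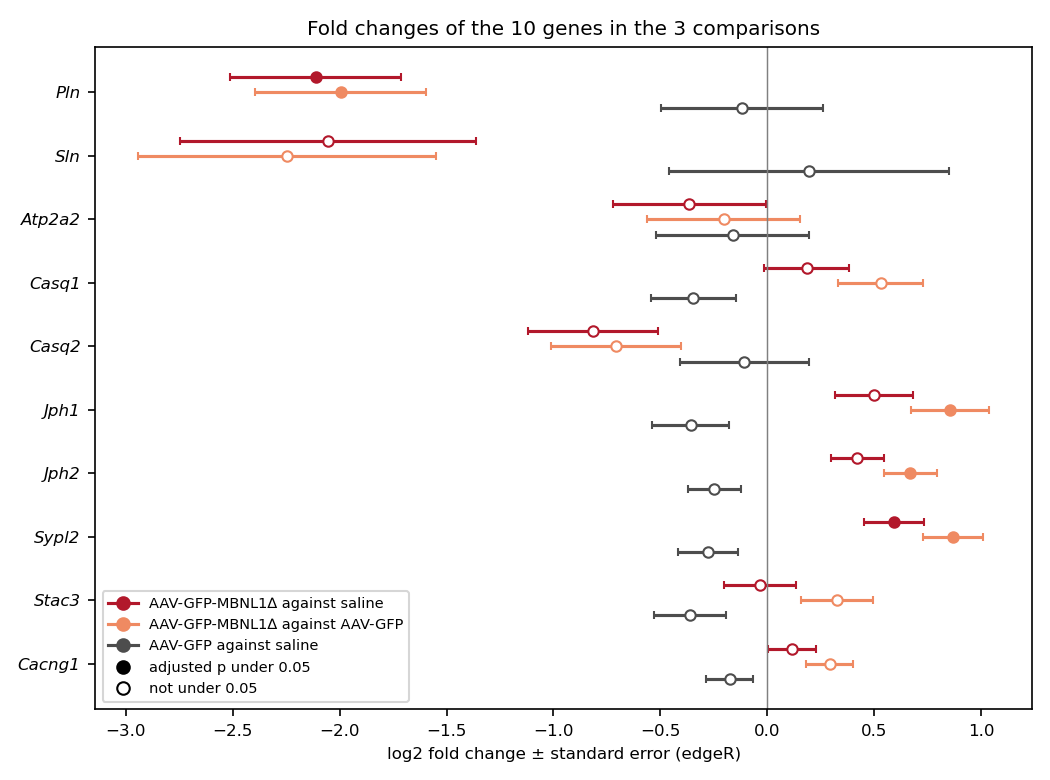
log2 fold change (x axis) with its standard error (bars) for the 10 genes in the 3 comparisons; filled points have an adjusted p under 0.05 in edgeR. The filled points are Pln below 0 and Sypl2 above 0 against saline, and Pln below 0 and Jph1, Jph2 and Sypl2 above 0 against AAV-GFP; no point is filled for AAV-GFP against saline.

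Stac3 and Cacng1 belong to the voltage sensor, Stac3 as the adaptor that the channel needs for its function in skeletal muscle and Cacng1 as its gamma subunit. Stac3 (chromosome 10, 127501686 to 127508823, plus strand) was at 207, 243 and 226 CPM in AAV-GFP-MBNL1∆, 198, 132 and 209 CPM in AAV-GFP and 248, 232 and 212 CPM in saline. Cacng1 (chromosome 11, 107703218 to 107716522, minus strand) was at 185, 182 and 189 CPM in AAV-GFP-MBNL1∆, 135, 145 and 175 CPM in AAV-GFP and 182, 167 and 165 CPM in saline. The group mean of both was lowest in AAV-GFP, though AAV-GFP 3 lay above AAV-GFP-MBNL1∆ 1 in Stac3 and above saline 2 and 3 in Cacng1. Neither passed in any comparison (adjusted p from 0.179 to 0.921 for Stac3 and from 0.0848 to 0.559 for Cacng1). Cacng1 against AAV-GFP passed without AAV-GFP 3 (log2 fold change 0.38, adjusted p = 0.021). Cacna1s, the pore-forming subunit they join, was at 1113, 849 and 1187 CPM in AAV-GFP-MBNL1∆, 1027, 596.5 and 1104 CPM in AAV-GFP and 1444.2, 1443.8 and 1314 CPM in saline. Every saline library was above every other, and the log2 fold changes were −0.42 for AAV-GFP-MBNL1∆ (SE 0.23, adjusted p = 0.298) and −0.62 for AAV-GFP (SE 0.23, adjusted p = 0.181), neither past the threshold; the first passed without AAV-GFP 2 (adjusted p = 0.0322).

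**Figure D4:**
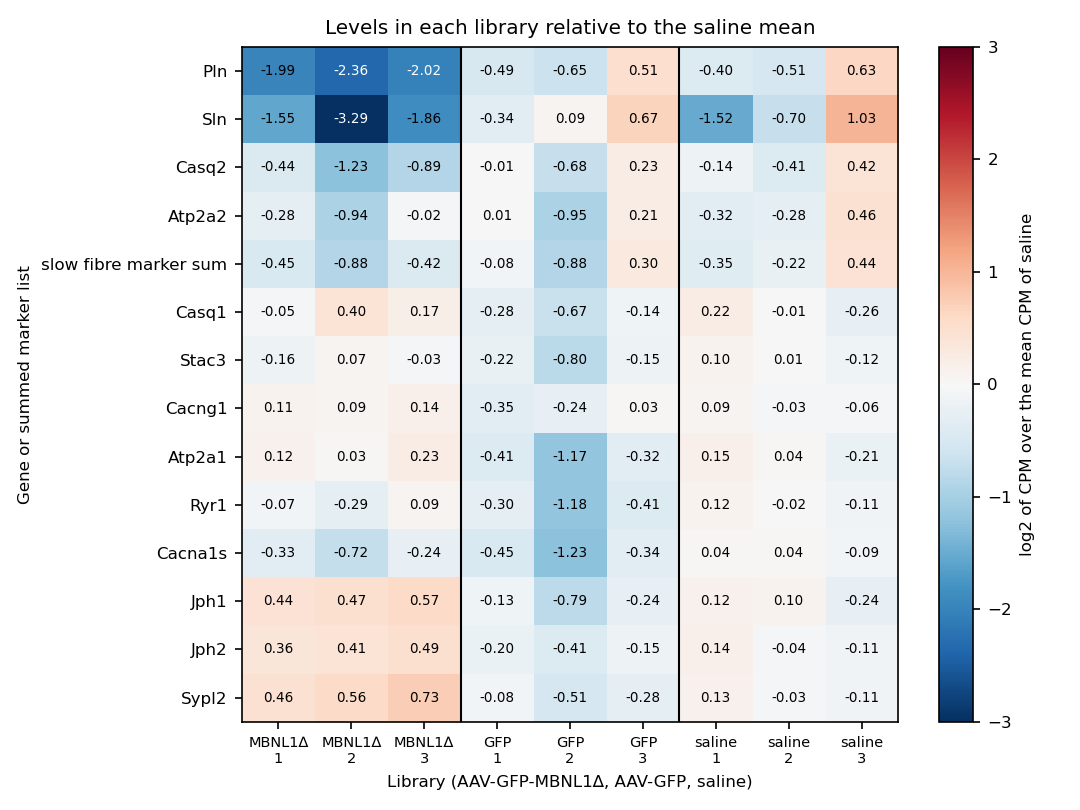
log2 of the CPM in each library over the mean CPM of saline (colour and printed value) for the 10 genes, the slow fibre marker sum and Atp2a1, Ryr1 and Cacna1s. Pln reads −2.36 to −1.99 in AAV-GFP-MBNL1∆ while Jph1, Jph2 and Sypl2 read 0.36 to 0.73, and AAV-GFP 2 is the lowest AAV-GFP library in every row except Sln and Cacng1.

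Over the 10 genes, 2 passed for AAV-GFP-MBNL1∆ against saline, 1 in each direction, where 9.37% of all tested genes passed (4.76% higher and 4.6% lower). For AAV-GFP-MBNL1∆ against AAV-GFP 4 passed, 3 higher and 1 lower, where 21.1% of all genes passed (10.8% higher and 10.3% lower). For AAV-GFP against saline 0 of the 10 passed in edgeR, none had an unadjusted p under 0.05, and 0 of the 10 passed with DESeq2 and 4 with quality-weighted limma-voom. Over all 18514 genes, 0% passed in edgeR and 4065 had an unadjusted p under 0.05 (22%). The shares over all genes with DESeq2 and quality-weighted limma-voom are not given here. The median log2 fold change of the 10 was 0.04, 0.31 and −0.21 for AAV-GFP-MBNL1∆ against saline, AAV-GFP-MBNL1∆ against AAV-GFP and AAV-GFP against saline, beside 0.02, −0.06 and −0.01 over all tested genes. Groups did not overlap for 7 of the 10 genes against saline and for 7 against AAV-GFP, where 42.7% and 38.4% of all genes did not. For AAV-GFP against saline they did not overlap in CPM for 2 of the 10, Jph2 and Stac3, both lower in AAV-GFP, beside 27.1% of all genes. These comparisons share libraries, so a gene's values in them are not independent.

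Levels between genes were compared per length, as TPM computed from the counts and the GENCODE exon lengths. In AAV-GFP-MBNL1∆, the order was Atp2a1 (22018 TPM), Casq1 (2755), Ryr1 (412), Jph2 (411), Cacna1s (352), Cacng1 (326), Atp2a2 (324), Sypl2 (266), Jph1 (256), Stac3 (194), Casq2 (23.9), Pln (2.96) and Sln (2.58), all mean TPM of 3 libraries. Neighbours overlapped between Ryr1 and Jph2, from Cacna1s to Jph1, and between Pln and Sln. In AAV-GFP and saline, Atp2a1 and Casq1 also led and Casq2, Pln and Sln were also the lowest 3, but Atp2a2 (446 and 449 TPM) stood above Jph2 (316 and 329 TPM) by its mean. Pln and Sln averaged 14.1 and 14.8 TPM in AAV-GFP and 13.8 and 11.5 TPM in saline and overlapped in both. Jph2 was at 402 to 423 TPM in AAV-GFP-MBNL1∆, against 303 to 326 TPM in AAV-GFP and 310 to 359 TPM in saline. AAV-GFP-MBNL1∆ thus lay above both other groups in TPM as in CPM. AAV-GFP and saline overlapped for Jph2 in TPM and not in CPM, as they did for Stac3 (158 to 208 and 200 to 226 TPM). The size of the Jph2 difference between the vectors also depended on the scaling: AAV-GFP-MBNL1∆ and AAV-GFP averaged 411 and 316 TPM, proportionally closer than 798 and 502 CPM. The same held for Jph1 (256 and 171 TPM, 582 and 322 CPM) and Sypl2 (266 and 178 TPM, 531.5 and 291 CPM). Cacng1 averaged 326, 326 and 323 TPM in AAV-GFP-MBNL1∆, AAV-GFP and saline, without the lower AAV-GFP level seen in CPM.

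A wider list of 90 calcium-handling genes, of which 88 were tested, held 12 that passed for AAV-GFP-MBNL1∆ against saline (9 higher, 3 lower), 28 that passed against AAV-GFP (23 higher, 5 lower) and 0 for AAV-GFP against saline, where 20 had an unadjusted p under 0.05, 5 passed with DESeq2 and 9 passed without AAV-GFP 3. The called share was 13.6% against saline, beside 9.37% of all genes, and 31.8% against AAV-GFP, beside 21.1%. By list, that share ran from 0% to 37.5% against saline and from 14.3% to 50% against AAV-GFP, lists of 5 to 16 tested genes. Of the 12, 10 were lost in at least 1 of the fits without 1 library, and of the 28, 23 were (adjusted p where lost from 0.0501 to 0.161). The count lay between 2 (without any 1 saline library or AAV-GFP-MBNL1∆ 3) and 27 (without AAV-GFP 2) against saline, and between 5 (without AAV-GFP-MBNL1∆ 3) and 36 (without AAV-GFP 3) against AAV-GFP. Shares of all genes called in those fits or with DESeq2 are not given here. Cav3 and Ryr3 were the ones kept throughout in both comparisons, and Calm3, Stim2 and Tmem38b were kept throughout against AAV-GFP. In TPM, Cav3, Ryr3, Calm3 and Stim2 also lay above AAV-GFP without overlap. Tmem38b overlapped it, with 47.5 to 55.7 TPM in AAV-GFP-MBNL1∆ against 36.9 to 51.3 TPM in AAV-GFP. Other genes called against AAV-GFP overlapped in TPM as well, among them Cacng6, Camk2d, Speg and Stim1. Cav3 encodes caveolin-3, which shapes the T-tubules. It was at 39.5, 46.6 and 40.8 CPM in AAV-GFP-MBNL1∆, 25.1, 23.2 and 26.6 CPM in AAV-GFP and 25.03, 25.05 and 25.21 CPM in saline. It rose by 0.75 against saline (SE 0.08, adjusted p = 0.00181) and by 0.76 against AAV-GFP (SE 0.09, adjusted p = 0.00145). Ryr3, a ryanodine receptor more abundant in young and diaphragm muscle, was at 3.50, 5.91 and 4.39 CPM in AAV-GFP-MBNL1∆, 1.19, 1.77 and 1.46 CPM in AAV-GFP and 1.65, 1.41 and 1.495 CPM in saline. It rose by 1.60 against saline (SE 0.23, adjusted p = 0.00497) and by 1.64 against AAV-GFP (SE 0.23, adjusted p = 0.00381). Both were higher in every AAV-GFP-MBNL1∆ library than in any other.

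Of the 5 tested pumps and further small pump peptides, 1 passed against saline and another against AAV-GFP. Arln, another-regulin, averaged 18.0 ± 2.85 CPM in AAV-GFP-MBNL1∆, 15.7 ± 2.09 CPM in AAV-GFP and 12.4 ± 0.0619 CPM in saline, and rose by 0.54 against saline (SE 0.13, adjusted p = 0.0367). In TPM, Arln averaged 34.0 in AAV-GFP-MBNL1∆, 36.9 in AAV-GFP and 25.2 in saline. Mrln, which encodes myoregulin, the inhibitor of the fast fibre pump, averaged 28.2 ± 1.67 CPM in AAV-GFP-MBNL1∆, 14.6 ± 5.58 CPM in AAV-GFP and 21.6 ± 3.59 CPM in saline, and rose by 0.95 against AAV-GFP (SE 0.27, adjusted p = 0.0413). The Arln call was kept without AAV-GFP 2 or 3 and lost without any other library (adjusted p from 0.0548 to 0.122), as was the Mrln call (0.0573 to 0.108). The small pump inhibitors did not share a direction: Pln fell and Arln rose in AAV-GFP-MBNL1∆ against saline. Of 7 further store proteins, none passed against saline and Asph, which encodes junctin and aspartate beta-hydroxylase, rose by 0.39 against AAV-GFP (SE 0.12, adjusted p = 0.044), kept only without saline 3 (elsewhere 0.0508 to 0.141).

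Of 16 release channel genes, 3 rose against saline, Ryr3, Itpr1 and Calm3, and none fell. Against AAV-GFP 7 rose and 1 fell, the inositol trisphosphate receptor gene Itpr2 (log2 fold change −0.74, SE 0.15, adjusted p = 0.0137). Itpr1, another inositol trisphosphate receptor, rose by 0.36 against saline (SE 0.08, adjusted p = 0.0291) and Calm3, a calmodulin gene, by 0.54 (SE 0.13, adjusted p = 0.035). Of 15 tested triad and T-tubule genes, 2 rose against saline (Cav3 and Tmem38b) and 6 against AAV-GFP, and none fell. The called share of this list was 13.3% against saline and 40% against AAV-GFP. Tmem38b encodes TRIC-B, a cation channel of the store membrane, and rose by 0.48 against saline (SE 0.09, adjusted p = 0.0153) and by 0.53 against AAV-GFP (SE 0.09, adjusted p = 0.00811). Speg, a kinase found at the triad, rose by 0.90 against AAV-GFP (SE 0.21, adjusted p = 0.0223). The calls of Itpr1, Calm3 and Tmem38b against saline were each lost in the fits that omit AAV-GFP-MBNL1∆ 3 or any 1 saline library, that of Itpr1 also without AAV-GFP-MBNL1∆ 2, that of Tmem38b also without AAV-GFP-MBNL1∆ 1, and that of Calm3 in every fit except those without AAV-GFP 2 or 3 (adjusted p where lost from 0.0504 to 0.135). Against AAV-GFP, Itpr2 was lost without AAV-GFP-MBNL1∆ 3 (0.0687) and Speg without AAV-GFP-MBNL1∆ 1 or 3 (0.0711 and 0.0937).

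Voltage sensor subunits gave no call among 7 against saline and 2 against AAV-GFP: Cacng6, a gamma subunit, rose by 0.38 (SE 0.11, adjusted p = 0.0477) and Rrad, a small GTPase that restrains the channel, fell by 2.65 (SE 0.66, adjusted p = 0.0303). Rrad averaged 5.90 ± 1.82 CPM in AAV-GFP-MBNL1∆, 37.0 ± 22 CPM in AAV-GFP and 8.75 ± 6.15 CPM in saline and was not called for AAV-GFP against saline, where the libraries overlapped (log2 fold change 2.08, adjusted p = 0.14). Of 8 genes of store-operated calcium entry, which refills the store from outside, the sensor gene Stim2 rose against saline by 0.47 (SE 0.12, adjusted p = 0.0403), Saraf rose by 0.44 (SE 0.10, adjusted p = 0.031) and Stimate fell by 0.39 (SE 0.10, adjusted p = 0.0431). Against AAV-GFP, Stim2 rose by 0.67 (SE 0.12, adjusted p = 0.00922) and Stim1 by 0.46 (SE 0.14, adjusted p = 0.0484). The calls of Stim2, Saraf and Stimate against saline, and of Stim1 against AAV-GFP, held without AAV-GFP 2 or 3 and were lost without any other library (adjusted p from 0.055 to 0.16). Cacng6 was kept only without AAV-GFP 3 (elsewhere 0.0537 to 0.141), and Rrad only without AAV-GFP 3, saline 2 or saline 3 (elsewhere 0.0525 to 0.112).

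Of 7 genes of calcium export at the cell surface, the pump gene Atp2b4 fell in AAV-GFP-MBNL1∆ against saline by 0.52 (SE 0.10, adjusted p = 0.0184) and against AAV-GFP by 0.38 (SE 0.10, adjusted p = 0.0364), and Atp2b3, a related pump, rose against AAV-GFP by 0.80 (SE 0.17, adjusted p = 0.0161). Of 9 genes of mitochondrial calcium uptake, none passed against saline, and against AAV-GFP Letm1 rose by 0.41 (SE 0.09, adjusted p = 0.0167) and Mcub, a subunit that restrains the uniporter, fell by 1.83 (SE 0.53, adjusted p = 0.0428), having averaged 0.752 ± 0.223 CPM in AAV-GFP-MBNL1∆, 2.66 ± 2.05 CPM in AAV-GFP and 0.465 ± 0.126 CPM in saline. Of 14 genes for calcium buffers, kinases and calcineurin, the kinase gene Camk2d rose against saline by 0.44 (SE 0.09, adjusted p = 0.0243) and the transcription factor gene Nfatc3 fell by 0.44 (SE 0.12, adjusted p = 0.0496). Against AAV-GFP, Camk2a, another subunit of that kinase, rose by 1.04 (SE 0.21, adjusted p = 0.0141), Camk2d by 0.36 (SE 0.09, adjusted p = 0.0308) and Ppp3cb, a catalytic subunit of calcineurin, by 0.73 (SE 0.19, adjusted p = 0.0288). Of the calls against AAV-GFP, those of Atp2b3, Letm1 and Camk2a were lost without AAV-GFP-MBNL1∆ 3 alone (adjusted p from 0.0665 to 0.075), and that of Ppp3cb without any 1 AAV-GFP-MBNL1∆ library (0.0711 to 0.104). Both Atp2b4 calls, both Camk2d calls and those of Mcub and Nfatc3 were each lost in 4 to 8 of the 9 fits without 1 library (0.0512 to 0.161).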

How the data were processed

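Per the labels' protocols, muscle RNA was isolated in Trizol, cleared of DNA, and 250 ng of it entered a KAPA mRNA library kit. Per the submitters' processing notes, the tools included cutadapt 2.10, STAR 2.7.5a with build mm10, HTSeq 0.12.4 and DESeq2 1.30.0. The deposited values are counts of reads per gene, 1 table per library. The sources used here do not give the annotation release or the strand setting. Between 16.8% and 18.3% of reads sat in rows with no gene name, which were not used.

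One edgeR 4.0.16 model (R 4.3.3) held all 9 libraries with a mean for each group: TMM scaling, filterByExpr, robust quasi-likelihood F test, 6 residual degrees of freedom and a biological coefficient of variation of 0.232. Benjamini-Hochberg adjustment ran over the 18514 genes tested in each comparison, with 0.05 as threshold. Adjusted p-values are edgeR's unless another tool is named. They set differences between groups against the spread between libraries, which may be technical. The standard error is the log2 fold change over the square root of F. TPM used exon lengths of GENCODE M21 (GRCm38), to which 55141 of 55401 identifiers matched; coordinates are from it. Older symbols of Arln and Stimate were matched through RefSeq synonyms. The fit was checked on simulated counts. The main fit did not pair libraries by replicate number. No 2 libraries held identical counts.

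The 10 genes and the lists were chosen with earlier results of these data known. From each further list, the text names called genes with the smallest p-values (up to 3 per comparison), and always Atp2a1, Ryr1 and Cacna1s. The genes nearest in pattern to Casq2 are not reported here. The alternatives were other scalings, filters and tests (DESeq2 1.42.0, limma-voom of limma 3.58.1), the replicate block, 2 groups alone and leaving out each library.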

Additional observations from a re-analysis of the deposited data

How the results depend on the processing

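For AAV-GFP-MBNL1∆ against saline, the 2 calls among the 10 genes became 1 with upper quartile scaling, 6 with DESeq2, 5 with quality-weighted limma-voom, 4 with the 2 groups alone and 0 to 4 when 1 library was left out. The 12 calls among the other calcium-handling genes became 32 with quality-weighted limma-voom, 29 with the 2 groups alone and 2 to 27 when 1 library was left out. For AAV-GFP-MBNL1∆ against AAV-GFP, the 4 calls became 7 with DESeq2, 8 with quality-weighted limma-voom and 1 to 5 when 1 library was left out, and the 28 became 56 with quality-weighted limma-voom, 8 with the 2 groups alone and 5 to 36 when 1 library was left out. For AAV-GFP against saline, the 0 calls among the 10 genes became 4 with quality-weighted limma-voom, and the 0 among the others became 5 with DESeq2, 31 with quality-weighted limma-voom and 0 to 9 when 1 library was left out. The cause of these differences was not tested, and the fits without 1 library have fewer samples. The share of all tested genes called under each alternative is not given here. These counts therefore describe the processing and are no result about the calcium genes. Correlations of same-numbered deviations ran from −0.082 to 0.446, the highest between AAV-GFP-MBNL1∆ 3 and AAV-GFP 3. Libraries of different numbers were not compared, so whether the numbers pair libraries is not known. With the replicate block the counts among the 10 genes were 2, 5 and 0 for AAV-GFP-MBNL1∆ against saline, against AAV-GFP, and AAV-GFP against saline (against saline Sypl2 was lost, adjusted p = 0.0549, and Casq2 gained, 0.0445; against AAV-GFP Casq2 was gained, 0.0476), and 9, 21 and 0 among the others. Of the members' log2 fold changes under the alternatives, 540 kept their sign and side of the threshold, 29 gained a call, 16 lost one and 15 changed sign, all 15 in values that passed no test. For AAV-GFP against saline these were Pln (0.34 without saline 3, 0.04 without AAV-GFP 1, 0.06 without AAV-GFP 2), Sln (−0.22 without saline 1, −0.06 without saline 2, −0.11 without AAV-GFP 3), Atp2a2 (0.19 with quality-weighted limma-voom, 0.14 without saline 3, 0.09 without AAV-GFP 2) and Casq2 (0.17, 0.16 and 0.09 under the same 3 changes). For AAV-GFP-MBNL1∆ they were Stac3 against saline (0.018 without saline 1 and 0.023 without AAV-GFP-MBNL1∆ 1) and Atp2a2 against AAV-GFP (0.021 without AAV-GFP-MBNL1∆ 2). Without 1 library, these values ranged from −0.56 to 0.34 (Pln), −0.22 to 1.24 (Sln), −0.38 to 0.14 (Atp2a2) and −0.30 to 0.16 (Casq2) for AAV-GFP against saline, from −0.093 to 0.023 for Stac3, and from −0.48 to 0.021 for Atp2a2 against AAV-GFP. Sln had 36 to 1002 counts per library.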

Other observations

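The genes whose log2 CPM ran most like that of a member over the 9 libraries were named among 12208 protein-coding genes with a mean of at least 1 CPM. The libraries share groups, so these Pearson coefficients are descriptions. Robo1 (0.991) and Zfp385b (0.983) were nearest to Pln, Luzp1 and Cd34 to Sln, Cat and Proser3 to Atp2a2, and Rtn4 and Pdlim7 to Casq1. Zbtb18 (0.994) and Cnot7 (0.993) were nearest to Jph1, Zfp467 (0.993) and Calm3 (0.992) to Jph2, and Ctbp1 (0.992) and Adamtsl2 (0.992) to Sypl2. Me3 and Gm14326 were nearest to Stac3, and Pwp1 and A430005L14Rik to Cacng1, where the coefficients were the lowest of the 10 members (0.94 and 0.938). None of the slow fibre markers was among the 2 nearest genes of Pln, Sln or Atp2a2. With only 2 of 12208 genes listed, that absence does not show that the patterns differ. Atp2a2 lay between 17.9% and 25.1% of the slow fibre sum in all 9 libraries.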
